A study of Mus musculus with 6 samples.

Results

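The 10 genes described here encode transcription factors of the lymphoid lineages, with the receptor Notch1 and the inhibitor Id2 among them. Open chromatin at these genes was mapped in long-term haematopoietic stem cells with ATAC-seq, an assay that uses a transposase to insert sequencing adapters where DNA is accessible. Every peak that overlapped the mm10 gene body of a member or the 50 kb on each side was taken, and peaks of the 6 samples that shared at least 1 bp were merged. This gave 921 regions at the 10 genes, of 882758 regions in all. The samples were 3 aged and 3 young C57BL/6 preparations of bone marrow cells, sorted as lineage-negative, Kit-positive and Sca1-positive cells without Flk2 and Cd34. All were kept overnight at 3% oxygen in buffered saline with serum before the assay, so no group was free of that step. The labels give neither an age in weeks or months nor whether samples came from separate animals, and the titles carry an unexplained number and an "exp" number, the second shared by aged and young samples of one replicate number. The p-values below therefore rest on the variation among these 6 samples, part or all of which may be technical.

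Lymphocytes arise from stem cells through progenitors in which lymphoid genes become active before any lineage choice is fixed. Ikaros (Ikzf1), the E protein E2A (Tcf3) and the chromatin organiser Satb1 act at these first steps, and Id2 encodes a protein that pairs with E proteins and keeps them off DNA. Notch1 is the receptor whose signal directs progenitors towards the T lineage in the thymus. Ebf1 and Pax5 then set and hold B-cell identity, while TCF-1 (Tcf7), Gata3 and Bcl11b do so for T cells. Gata3 is also expressed in blood stem cells of the mouse. The genes are grouped below as 5 early factors (Ikzf1, Tcf3, Notch1, Satb1 and Id2) and 5 committed factors (Ebf1 and Pax5 for B cells, Tcf7, Gata3 and Bcl11b for T cells).

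The start sites of 6 members are shown first, chosen because their calls carry the contrast in what follows. Each line gives the 250 bases before an annotated start, 5′ to 3′ on the strand of the gene, from RefSeq on the GRCm38.p6 build (mm10). Capitals mark matches, on either strand, to any of 7 short motifs, none of which contains another. The core that ETS factors bind was searched as GGAAG, and that of RUNX factors as TGTGGT. The E-box, which E proteins bind, was searched as CAGCTG, and the box of SP and KLF factors as GGGCGG. The remaining 3 were the box of nuclear factor Y, CCAAT, the box of the basal machinery, TATAAA, called the TATA box here, and the core of GATA factors, AGATAA. The first 4 windows belong to early factors whose start was called in every sample, and the last 2 to committed factors whose start was not. The windows lie at chr11:11685675-11685924 (Ikzf1, plus strand), chr10:80433636-80433885 (Tcf3, minus), chr2:26503823-26504072 (Notch1, minus), chr12:25096093-25096342 (Id2, minus), chr4:44710695-44710944 (Pax5, minus) and chr12:108003415-108003664 (Bcl11b, minus).
Ikzf1: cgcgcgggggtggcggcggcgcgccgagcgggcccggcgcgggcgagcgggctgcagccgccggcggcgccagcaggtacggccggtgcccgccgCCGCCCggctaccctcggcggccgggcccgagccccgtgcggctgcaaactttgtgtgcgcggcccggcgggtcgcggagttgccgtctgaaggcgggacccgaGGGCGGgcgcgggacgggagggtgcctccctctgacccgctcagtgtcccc
Tcf3: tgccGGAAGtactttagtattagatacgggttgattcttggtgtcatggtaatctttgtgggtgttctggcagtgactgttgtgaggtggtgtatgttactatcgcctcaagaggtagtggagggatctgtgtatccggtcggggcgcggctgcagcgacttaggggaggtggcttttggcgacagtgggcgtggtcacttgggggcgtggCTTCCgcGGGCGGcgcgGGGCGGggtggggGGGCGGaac
Notch1: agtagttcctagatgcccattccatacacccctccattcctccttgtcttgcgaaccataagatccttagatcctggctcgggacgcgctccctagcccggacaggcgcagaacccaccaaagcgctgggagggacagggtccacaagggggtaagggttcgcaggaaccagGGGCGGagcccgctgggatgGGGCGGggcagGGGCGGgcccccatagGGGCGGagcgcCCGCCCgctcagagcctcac
Id2: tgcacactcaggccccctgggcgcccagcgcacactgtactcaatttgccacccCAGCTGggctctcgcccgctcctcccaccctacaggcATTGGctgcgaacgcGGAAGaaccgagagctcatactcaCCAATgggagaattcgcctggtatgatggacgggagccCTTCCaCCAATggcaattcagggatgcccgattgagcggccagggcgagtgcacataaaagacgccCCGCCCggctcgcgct
Pax5: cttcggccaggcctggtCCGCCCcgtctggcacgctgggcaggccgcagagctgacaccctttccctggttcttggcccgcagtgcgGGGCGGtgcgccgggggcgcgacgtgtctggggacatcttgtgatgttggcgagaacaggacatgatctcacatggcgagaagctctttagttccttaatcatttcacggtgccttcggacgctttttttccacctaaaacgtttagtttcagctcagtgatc
Bcl11b: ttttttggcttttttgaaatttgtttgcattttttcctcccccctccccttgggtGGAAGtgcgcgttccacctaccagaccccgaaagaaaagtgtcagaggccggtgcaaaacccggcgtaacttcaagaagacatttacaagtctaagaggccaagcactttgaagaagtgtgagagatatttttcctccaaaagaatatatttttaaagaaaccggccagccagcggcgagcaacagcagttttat

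The windows of these 4 early starts held G and C at 82% for Ikzf1, 59.6% for Tcf3, 66% for Notch1 and 62.8% for Id2. Pax5 had 58.8% and Bcl11b 44.8%. The median over 21044 start windows of protein-coding genes was 55.6%, with quartiles of 47.6% and 64%. Ikzf1 held 44 CpG pairs, Pax5 19, Tcf3 and Id2 18 each, Notch1 16 and Bcl11b 9. The median window held 10, with quartiles of 3 and 19. Tcf3 and Id2 thus lay between the quartiles in both measures. The SP/KLF box, found in 43.1% of all windows, occurred 5 times before Notch1, 3 times before Tcf3, 2 times before Ikzf1 and before Pax5, and once before Id2. The Id2 window also held 3 CCAAT boxes (35.6% of all windows have at least 1), 2 ETS cores (65% of windows) and an E-box (12.2% of windows). Tcf3 held 2 ETS cores, and the only match before Bcl11b was 1 ETS core. No RUNX core (12.2% of windows), TATA box (11.7%) or GATA core (8.84%) matched in these 6 windows. GC content and motif counts thus did not separate Pax5 from the called starts, since Pax5 lay close to Tcf3 in GC content and in CpG pairs. Among windows not printed, the richest of Satb1 had 80.8% GC and 41 CpG pairs, and that of Tcf7 76% and 37. Both genes had a start called in 4 lists only. Gata3, called in 6 through a region that lies upstream of its window, had 70% and 19. The downstream start of Ikzf1 had 47.6% and 1. A RUNX core occurred before Ebf1 and a TATA box before Tcf7. High GC content was thus also found at starts not called in every list. A match is a description of letters and not of a bound factor.

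The lists differed in length and in how well they resolved peaks. Aged lists held 244692, 129137 and 129949 distinct peaks and young lists 263956, 254869 and 110596, in the order of replicates 1 to 3. Of regions common to the other 5 lists, aged replicate 3 had 75.6% and young replicate 2 had 62.3%, while each of the remaining 4 had at least 97.4%. The -log10 p of peaks took 200 distinct values in young replicate 2, so its ranks are coarse and tied. The number of reads is not known from the sources used here. Strength is given below as a percentile, the rank of the authors' -log10 p of a peak among all peaks of the same list, with 100 for the strongest. A peak in these bulk lists does not tell a region open in a few of the cells from one weakly open in all of them.

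The label of the cells was checked by the starts of marker genes. Of 7 stem-cell markers with an annotated start window, Kit, Mecom, Hlf and Meis1 were called in all 6 lists and Procr in 5, while Tek was called in 1 and Slamf1 in none. None of 4 B-cell, 6 T and NK-cell, 7 myeloid and 4 erythroid markers was called in all 6 lists, against 35.3% of 17273 protein-coding genes. Per list, 1, 1 and 0 of the B-cell markers were called in aged and 2, 1 and 0 in young samples. The T and NK markers gave 0, 3 and 2 in aged and 2, 2 and 0 in young samples. Vpreb1, a part of the pre-B-cell receptor, was called in no list, and Cd3d, Cd3e, Cd3g and Cd8a in 1 list each. The cytotoxic granule gene Nkg7 was called in 2 aged lists and 1 young list. Among myeloid markers, Mpo (myeloperoxidase) had 2 aged and 3 young calls, Lyz2 2 of each and Itgam 1 aged and 3 young, while Elane and Prtn3 had none. The erythropoietin receptor gene Epor had 2 aged and 3 young calls. Of the other erythroid markers, Klf1 had 2 aged and 0 young calls and Alas2 1 aged and 0 young, while Hbb-bt had none. The part of other cell types in the results was not tested.

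The first question was which of the lymphoid regulators had an accessible start in stem cells. A start was counted as called when a peak lay within 1 kb of any annotated start of the gene. Ikzf1, Tcf3, Notch1, Id2 and Gata3 had their start called in all 6 lists, and the other 5 members did not, against 35.3% of protein-coding genes. These 5 comprised 4 of the 5 early factors and 1 of the 5 committed ones. At a q-value limit of 0.05, Ikzf1, Tcf3 and Id2 were still called in all 6 lists, and Notch1, Gata3 and Ebf1 in 5. Satb1 was then called in 3 lists, Tcf7 and Bcl11b in 2 each and Pax5 in 0. With 10 genes this is a description of these loci. Called starts per list numbered 8, 10 and 6 of 10 in aged samples and 9, 7 and 9 in young samples. Over all protein-coding genes, 66.8%, 64.4% and 51.9% of starts were called in aged lists and 66.4%, 49.0% and 64.4% in young lists.

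**Figure D1:**
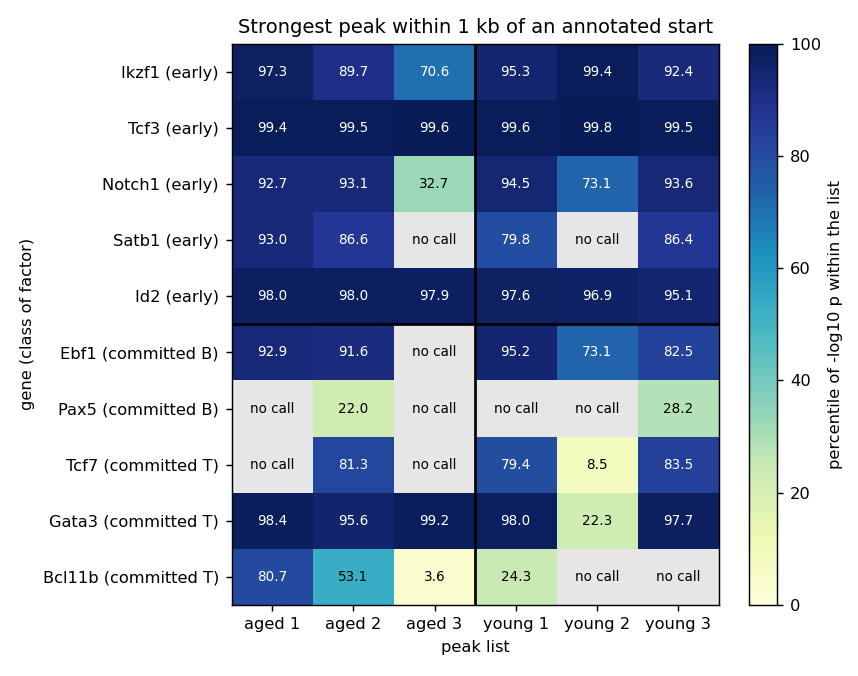
Percentile of the strongest peak within 1 kb of an annotated start, for each of the 10 genes (rows) in the 3 aged and 3 young lists (columns), with grey cells where no peak was called. Tcf3 and Id2 stay above 95 in every list, whereas Pax5 was called in 1 aged and 1 young list at 22.0 and 28.2.

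Tcf3, which encodes the E proteins E12 and E47, had the strongest start of the group. Its region (chr10:80433504-80434345) ranked at percentiles 99.4, 99.5 and 99.6 in aged lists and 99.6, 99.8 and 99.5 in young lists. The deposited fold enrichment over background was 10.3, 15.7 and 10.2 in aged lists and 12.1, 5.79 and 16.8 in young lists. Its 6 values thus lay within 1 percentile of each other. The summits, the points of highest signal, lay between -492 and -396 bp from the annotated start. They sat upstream of the sequence printed above, whose 3 SP/KLF boxes lie within the last 32 bases.

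Id2, the partner and inhibitor of E proteins, followed. Its start region (chr12:25095803-25096545) had percentiles of 98.0, 98.0 and 97.9 in aged lists and 97.6, 96.9 and 95.1 in young lists. All 3 aged values were above all 3 young ones, as in 3.55% of the 9582 regions called in all 6 lists. The deposited fold enrichment was 7.65, 13.6 and 7.47 in aged lists and 8.17, 3.57 and 13.5 in young lists, where the ages overlap. Summits lay between -155 and -33 bp, inside the printed window, in or next to the stretch that holds its 3 CCAAT boxes and both ETS cores.

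The promoter region of Ikzf1 (chr11:11685433-11686402) had percentiles of 97.3, 89.7 and 70.6 in aged lists and 95.3, 99.4 and 92.4 in young lists. Aged replicate 3 was the low one, and the ages overlap. Its summits lay after the start, between 184 and 314 bp, so the printed CpG-rich window forms the upstream side of the accessible region. A downstream alternative start of the gene (chr11:11690038-11690529) had a peak at percentile 93.2 in aged replicate 1, at 1.92 in aged replicate 2 and at 46.6 in young replicate 3.

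Notch1 had a start region (chr2:26503544-26504335) with percentiles of 92.7, 93.1 and 32.7 in aged lists and 94.5, 73.1 and 93.6 in young lists. The 2 low values belong to aged replicate 3 and young replicate 2, the lists that called fewest shared regions. In 5 lists the summit lay between -37 and 2 bp from the start, next to its row of SP/KLF boxes, and in aged replicate 1 it lay at -320 bp.

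Satb1 was the early factor without a start called in every list. It has 5 annotated starts, and none of the 5 regions near them was called in more than 4 lists. The region at its 2 upstream starts (chr17:51832498-51833381) was called in aged replicates 1 and 2 at percentiles 93.0 and 86.6 and in young replicate 3 at 86.4. A region that reached to within 1 kb of its downstream starts (chr17:51813007-51813848) ranked at 3.33 in aged replicate 2 and at 4.99, 22.3 and 69.8 in the young lists, but the peak of young replicate 2 itself lay beyond that distance. Its best-ranked region of all lay 2.37 kb upstream of those downstream starts (chr17:51814261-51814842), inside the gene. That region was called in aged replicates 1 and 2 at 94.9 and 96.0 and in young replicates 1 and 3 at 96.2 and 93.9. It was missing in aged replicate 3 and young replicate 2 alone.

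Among the committed T factors, Gata3 stood nearest to the early group. Its called region (chr2:9879382-9879905) was centred 1.04 kb upstream of the annotated start, with summits between -1131 and -1011 bp. Percentiles were 98.4, 95.6 and 99.2 in aged lists and 98.0, 22.3 and 97.7 in young lists, so young replicate 2 was the exception. A region at the start itself (chr2:9878576-9878935) was called in aged replicate 2 alone. With a window of 500 bp, Gata3 was therefore called in 1 list, not 6.

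Tcf7, a T-cell factor that Notch signals induce, had its start region (chr11:52283109-52283705) called in 1 aged and 3 young lists. The percentile was 81.3 in aged replicate 2 and 79.4, 8.54 and 83.5 in the young lists. Bcl11b, which locks in T-cell identity, was called near its start in 4 lists, but in 3 separate regions of which none was called in more than 2. Their percentiles were 80.7, 53.1 and 3.59 in aged lists and 24.3 in young replicate 1. No single region at the Bcl11b start was thus called across the samples. At a q-value of 0.05 the starts of Tcf7 and of Bcl11b were called in 2 lists each.

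Both B-cell factors lacked a start region shared by all samples. Ebf1, the factor that opens B-lineage chromatin, had a region centred 0.918 kb upstream of its first start (chr11:44616876-44617489). It was called at 92.9 and 91.6 in aged replicates 1 and 2 and at 95.2 and 82.5 in young replicates 1 and 3. It was missing in aged replicate 3 and young replicate 2. Calls at other places within 1 kb of its 2 starts were made in 1 or 2 lists each, so that a start of Ebf1 was called in 5 lists in all, and in 3 with a window of 500 bp. Pax5, which holds B-cell identity once set, was called within 1 kb of its start in aged replicate 2 at 22.0 and in young replicate 3 at 28.2, and in no list at a q-value of 0.05. These are low ranks, and no call at a start in the other 4 lists does not show that the site was closed there.

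Regions away from the starts were examined next. Of the 921 regions, 23 were at a start of the member, 8 at a start of another protein-coding gene and 890 distal. Called in all 6 lists were 17 regions (1.85%), against 1.09% of all merged regions and 1.59% of those within 50 kb of a protein-coding gene. Of these 17, 5 were starts of members, 4 were starts of the neighbours Mbd3, Sec16a, Zcchc7 and Skp1, and 8 were distal. Of the 8 distal regions, 3 lay within 1 kb of an annotated end of another gene (Mex3d with Gm30823, Gm40716 and Gm30217). As in the series as a whole, most regions were called in 1 list only, at 729 of 921 (79.2%) against 85.2% of all merged regions. At the edge of the rule, the last 10 kb inside the 50 kb limit held 78 regions, 2 of them called in all 6 lists, and the 10 kb beyond it held 78, none called in all 6.

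**Figure D2:**
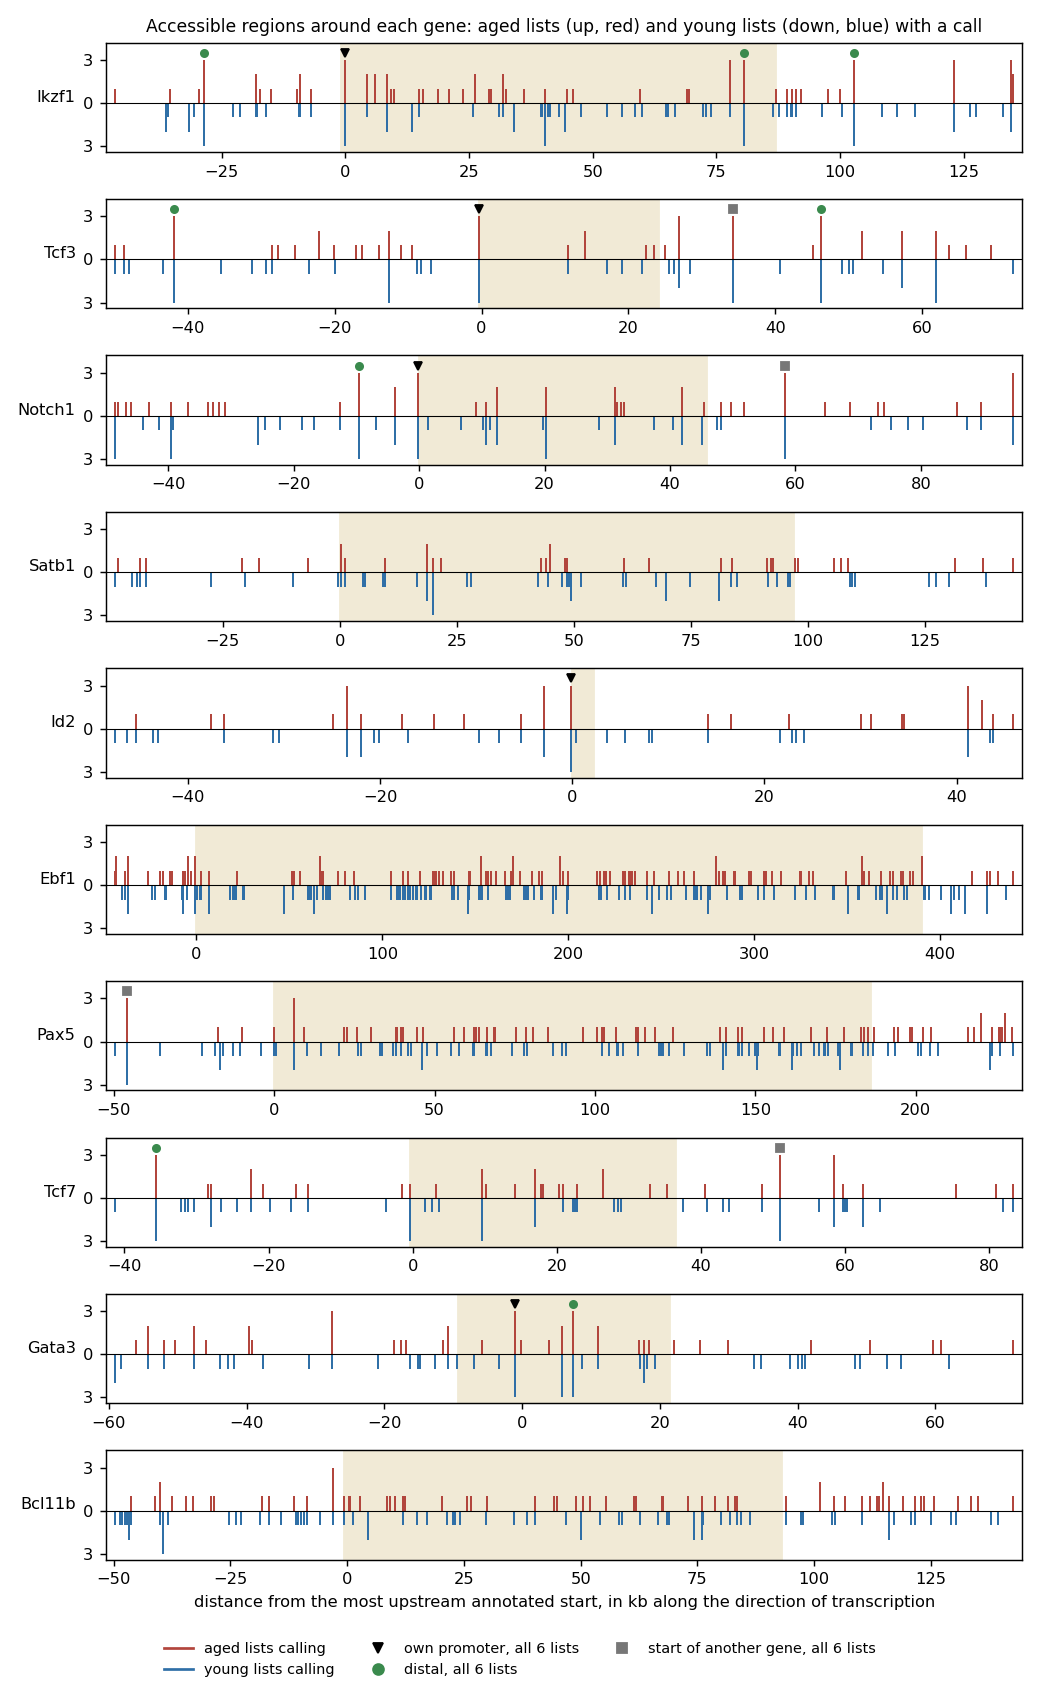
Each panel shows the merged regions of 1 locus by distance from its most upstream annotated start, in kb along the direction of transcription, with the gene body shaded. Bars count the aged lists (up, red) and young lists (down, blue) that called a region, and symbols mark the 17 regions called in all 6 lists, of which 12 lie at early and 5 at committed factors.

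Early and committed factors differed in how often their regions recurred. Of 313 regions at early factors, 12 (3.83%) were called in all 6 lists, and of 608 regions at committed factors 5 (0.822%) were. Called in at least 5 lists were 22 (7.03%) at early and 9 (1.48%) at committed factors, against 2.15% of all merged regions and 3.05% near protein-coding genes. The committed group was not uniform. Its B-cell loci had 1 of 371 regions (0.27%) shared by 6 lists and 2 (0.539%) by 5 or more. Its T-cell loci had 4 of 237 (1.69%) and 7 (2.95%), close to the 1.59% and 3.05% near protein-coding genes. The low committed shares thus came mainly from the B-cell loci. Among distal regions of the members alone, 19 of 890 (2.13%) were called in at least 5 lists. A matching share over the distal regions of the series was not available. The 19 comprised 13 of 296 (4.39%) at early and 6 of 594 (1.01%) at committed factors. The number of regions per length went the other way, at 41.3 per 100 kb for early and 49.1 for committed factors, where the median protein-coding gene had 39.0. Without aged replicate 3 and young replicate 2, 23 early (7.35%) and 11 committed regions (1.81%) were called in all 4 remaining lists, against 2.94% of all regions. Loci of the early group span 758 kb and those of the committed group 1237 kb, and 5 and 3 other protein-coding genes start in them, so gene density differs between the groups and its part in the contrast was not tested.

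Per locus, regions called in all 6 lists had a density of 3.21 per 100 kb at Tcf3, 2.13 at Ikzf1, 2.06 at Notch1 and 0.978 at Id2, with none at Satb1. The committed genes had 1.53 at Gata3, 1.46 at Tcf7, 0.350 at Pax5 and none at Ebf1 or Bcl11b. The median protein-coding gene had 0.794. At Pax5 the 1 region of this kind was the start of the neighbour Zcchc7, and at Tcf7 1 of the 2 was the start of Skp1. Ebf1 had 226 regions over 490 kb, the most of any member, and 187 of them were called in 1 list.

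Ikzf1 had 3 distal regions called in all 6 lists, more than any other member. The best-ranked lay 28.6 kb upstream (chr11:11657071-11657590), inside the non-coding gene Gm11999, at percentiles 98.4, 98.3 and 90.6 in aged lists and 99.6, 97.6 and 94.3 in young lists. Its deposited fold enrichment of 10.0, 20.9 and 4.42 in aged lists and 15.1, 3.67 and 14.0 in young lists exceeded that of the Ikzf1 promoter in 5 of 6 lists. A region inside the gene, 76.3 kb from its nearest start (chr11:11766163-11766790), had 99.0, 91.6 and 92.2 in aged lists and 86.5, 42.7 and 89.6 in young lists. The ages did not overlap there, with aged above young as in 3.55% of the 9582 regions called in all 6 lists. Its summit in young replicate 2, the lowest value, lay 76383 bp from that start, against 76117 to 76164 bp in the other lists. The other, downstream of the gene (chr11:11788509-11789058), had 93.1, 92.0 and 88.2 in aged lists and 65.0, 88.8 and 85.01 in young lists. Its summits lay 98445 to 98449 bp from the nearest start in aged replicate 1 and young replicates 1 and 2. In the other lists they lay at 98702 to 98710 bp, so the 6 calls joined there do not share a summit position.

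Notch1 had a distal region 9.65 kb upstream (chr2:26513194-26513750) with percentiles of 95.7, 87.2 and 91.6 in aged lists and 97.8, 22.3 and 93.3 in young lists. An intragenic one, 20.3 kb from the start (chr2:26483170-26483880), reached 96.0 and 86.3 in aged replicates 1 and 2 and 96.9, 98.6 and 88.6 in the young lists, and was missing in aged replicate 3. At Id2, regions 23.5 kb upstream (chr12:25119266-25119828) and 41.2 kb downstream (chr12:25054479-25055254) were the best-ranked distal ones, and were missing in young replicate 2 alone. The upstream one had 99.1, 93.1 and 84.1 in aged lists and 97.3 and 90.4 in young replicates 1 and 3, and the downstream one lay inside Kidins220.

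At Tcf3, in a gene-dense stretch, the distal regions called in all 6 lists lay 41.9 kb upstream (chr10:80475097-80475931) and 46.2 kb downstream (chr10:80386856-80388006). Their percentiles ran from 80.5 to 91.6 and from 58.5 to 92.4 in aged lists, and from 53.6 to 90.5 and from 73.1 to 94.8 in young lists. The summit of the downstream region lay 46667 bp from the start in aged replicate 3, against 45815 to 46120 bp in the other lists. Its calls thus do not share a summit position. Both distal regions overlap other annotated genes, Gm40716 and Mex3d.

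The best distal region of Gata3 lay 7.42 kb into the gene from its start (chr2:9870859-9871505), at 60.1, 82.7 and 90.4 in aged lists and 92.9, 22.3 and 70.0 in young lists. Its summit in young replicate 2 lay 7666 bp from the start, against 7184 to 7346 bp in the other lists. The next region, 5.76 kb into the gene, was called in all lists but aged replicate 1. Tcf7 had a region 35.6 kb upstream (chr11:52318385-52318851), near the end of Gm30217, at 91.7, 88.4 and 94.8 in aged lists and 95.7, 73.1 and 89.3 in young lists. It outranked the start of Tcf7 in each of the 4 lists that called both. An intragenic region 9.27 kb from the nearest start was missing in aged replicate 3 alone. Pax5 had an intragenic region 6.16 kb from its start (chr4:44704307-44704769), inside the annotated gene 5730488B01Rik, at 87.6, 91.1 and 88.2 in aged lists and at 95.4 and 89.9 in young replicates 1 and 3. It ranked far above the Pax5 start in aged replicate 2 and young replicate 3, the samples in which that start was called.

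The distal regions of Ebf1 and Bcl11b were called in 4 lists at most. Ranked by the mean percentile over the 6 lists with a missing call counted as 0, the first of Ebf1 lay 36.8 kb upstream (chr11:44580963-44581695). It was called at 44.1 and 68.3 in aged replicates 1 and 2 and at 65.0 and 78.6 in young replicates 1 and 3. The next, 7.04 kb upstream (chr11:44610933-44611191), had fewer calls at higher ranks, with 83.8 in aged replicate 2 and 96.6 and 71.1 in young replicates 1 and 3. By the same measure the first of Bcl11b, 2.99 kb upstream (chr12:108006051-108006758), was called at 87.9, 53.1 and 63.4 in aged lists and at 64.9 in young replicate 3. The next of Bcl11b was called in 3 lists, and the next of Satb1 and of Pax5 in 2 lists each.

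The strength of peaks was then compared between the groups of genes within each list. Of the peaks at early factors, 29.7%, 20% and 17.6% reached the 90th percentile of their list in aged samples and 23.2%, 7.62% and 19.2% in young samples. At committed factors the shares were 8.44%, 4.59% and 8.70% in aged and 6.59%, 3.66% and 2.94% in young samples. All peaks of a list gave 9.87% to 10.6%, except in young replicate 2, where ties left 3.36%. The early share was higher in 6 of 6 lists, by 3.96 to 21.2 percentage points. Satb1 was the exception within its group, with 5 of 67 peaks pooled over the 5 lists without young replicate 2 (7.46%), against 19.8% to 28.6% for the other 4 early genes. In the same 5 lists the share was 13.9% at Gata3, 11.4% at Tcf7, 8.40% at Pax5, 3.74% at Ebf1 and 0.826% at Bcl11b. With young replicate 2 it was 5.75% at Satb1, 11.7% at Gata3, 10.2% at Tcf7, 6.78% at Pax5, 3.65% at Ebf1 and 2.07% at Bcl11b. With distal peaks alone the early share was higher in 5 of 6 lists, and in young replicate 2 it was 2.13% against 2.53% at committed factors. The mean difference was then 8.04 percentage points, against 13.7 for all peaks. At the 80th percentile the distal early share was higher in 4 of 6 lists, and early minus committed was -1.62 percentage points in aged replicate 3 and -0.242 in young replicate 2. This contrast and its thresholds were chosen after the data had been seen, and it is a description of 10 loci.

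**Figure D3:**
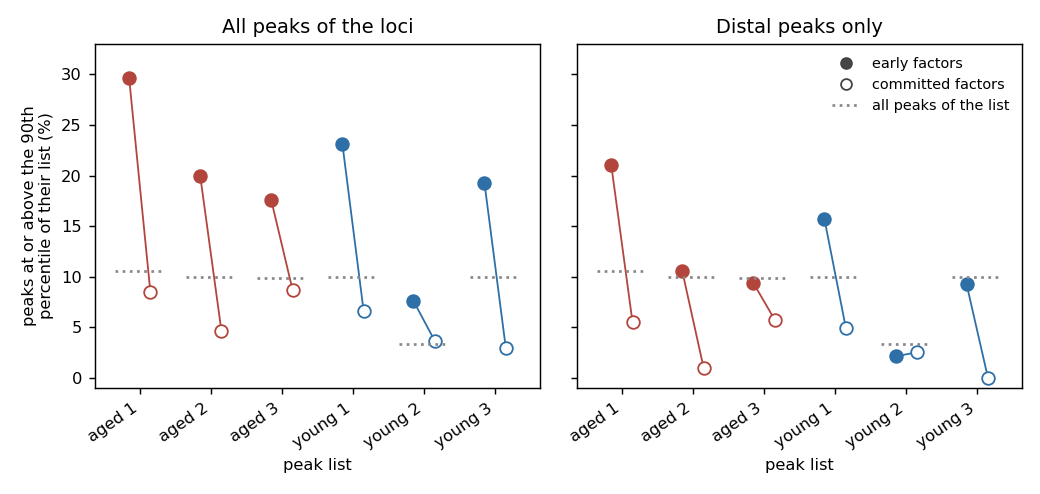
Share of peaks at or above the 90th percentile of their list, in percent, at early (filled) and committed factors (open) in each of the 3 aged (red) and 3 young (blue) lists, for all peaks and for distal peaks; dotted lines give the share over all peaks of the list. The early share lies above the committed one in 6 of 6 lists for all peaks and in 5 of 6 for distal peaks.

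Age was compared last, since aged stem cells are known to yield fewer lymphocytes. No difference between aged and young samples was detected at these genes. The share of a list that fell in the loci was 0.1001%, 0.139% and 0.128% in aged samples, against 0.0993%, 0.106% and 0.163% in young samples, and the widest Wilson 95% interval of a share, which covers counting error only, spanned 0.0476 percentage points. The mean was 0.122% ± 0.0198 (SD, n = 3) for aged and 0.123% ± 0.03499 (SD, n = 3) for young samples, with an exact 2-sided permutation p of 1. Within the pairs of samples that carry the same number, aged minus young was 0.000867, 0.0331 and -0.0350 percentage points. Called starts averaged 8 ± 2 (SD, n = 3) in aged lists, against 8.33 ± 1.15 (SD, n = 3) in young lists, with an exact 2-sided permutation p of 1, and the pairs gave -1, 3 and -3. The 2 ages overlap in both measures.

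The contrast of early and committed loci did not differ detectably with age either. Per 100 kb of locus and per 100000 peaks of the list, early factors had 4.91, 7.15 and 7.52 peaks in aged samples, against 4.75, 5.44 and 9.31 in young samples. Committed factors had 5.09, 6.82 and 5.72 in aged and 5.11, 5.2 and 7.45 in young samples. Early minus committed averaged 0.650 ± 1.02 (SD, n = 3) in aged samples, against 0.576 ± 1.15 (SD, n = 3) in young samples, with an exact 2-sided permutation p of 0.8, and aged minus young was 0.185, 0.0957 and -0.0605 within pairs. After Benjamini-Hochberg adjustment over these 3 tests each p was 1. With 3 lists per age the smallest p that the test can give is 0.1.

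Single regions gave few differences. Peaks in the 3 aged samples alone were found at none of the 921 regions (0.0502% of all merged regions), and peaks in the 3 young samples alone at 1 (0.0608% of all). That region lay 39.3 kb upstream of Bcl11b (chr12:108042404-108043119), at percentiles 24.3, 22.3 and 72.1 in the young lists. It was not called in this way at a q-value of 0.05, nor when a stricter overlap of peaks was asked for. More aged than young lists called 360 of the regions (39.2% of all merged regions), and more young than aged lists called 469 (52.9% of all).

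For the 9582 regions called in all 6 lists, ranks were compared between ages with limma over all of these regions. At an adjusted p of 0.05 no region differed (0%). An unadjusted p under 0.05 was found for 368, below the 5% of regions that this limit passes on average where none differs. The 17 regions at lymphoid factors gave limma adjusted p-values of at least 0.947. The aged percentiles lay above all young ones in 3 of the 17, against 3.55% of the 9582 regions, and below all young ones in none, against 2.54%. These 3 were the Id2 start, the intragenic Ikzf1 region and the start of Mbd3 near Tcf3. The Ikzf1 region had a difference of 1.04 ± 0.475 normal scores (estimate and SE, limma adjusted p 0.947, n = 3 each), higher in 3 of 3 aged lists. For the Id2 start it was 0.403 ± 0.410 (limma adjusted p 0.947), where the ages overlapped once ranks were taken among the shared regions alone. On these scores the aged values lay above all young ones in 2 of the 17, against 5% of the 9582, and below all young ones in none, against 4.69%.

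**Figure D4:**
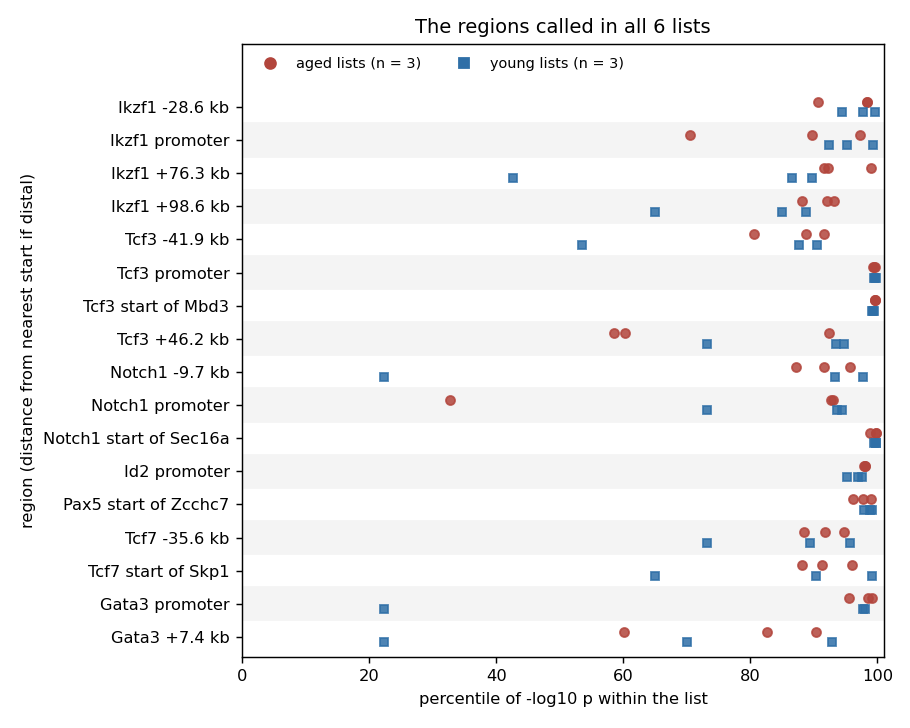
Percentile of -log10 p within its list for the 17 regions called in all 6 lists, with aged lists as red circles and young lists as blue squares (3 each); distal regions carry their distance in kb from the nearest annotated start. Starts of Tcf3 and Id2 and of the neighbours Mbd3, Sec16a and Zcchc7 lie above 95 in all lists, and the low points at 22.3 are young replicate 2.

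The wider lymphoid programme was read from a list of 55 genes, of which 41 had an annotated start window. Of these 41, 9 had a start called in all 6 lists (35.3% of protein-coding genes do), 16 in at least 5 (50.5%) and 4 in none (16.5%). Called in all 6 were the Ikaros relative Ikzf5, the E-protein inhibitor Id3, Notch2, the Notch effector Rbpj, and 5 of the 11 T and innate genes, namely Lef1, Runx3, Zbtb7b, Nfil3 and Tox2. None of 8 genes of lymphoid priming reached 6 lists. The transcription factor gene Mef2c came closest with 2 aged and 3 young calls. Flt3 had 2 aged calls, at percentiles 98.7 and 92.9, and 2 young calls, at 97.6 and 92.1. It was missing in aged replicate 3 and young replicate 2 alone. Il7r had 1 call of each age, and the recombination genes Rag2 and Dntt none. None of 12 B-lineage genes reached 6 lists. Irf4, Irf8, Pou2f2 and Foxo1 were called in 5, and Spib and Vpreb1 in none.

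By age, 10 of the 41 starts had more aged than young calls (20.4% of protein-coding genes do), 10 had fewer (16.8%) and 21 had as many. No start was called in all 3 lists of one age and none of the other, which 0.127% of protein-coding genes showed for aged and 0.203% for young samples. The widest differences in number of lists were at Cd79a, a chain of the B-cell receptor, and the chemokine receptor gene Ccr9, each called in 2 aged and 0 young lists. The T-cell kinase gene Lck was called in 1 aged and 3 young lists. Several of these calls ranked low. Those of Cd79a lay at percentiles 1.59 and 43.8 and those of Ccr9 at 84.9 and 53.1, in aged replicates 1 and 2. Lck lay at 58.9 in aged replicate 1 and lower, at 40.4, 1.97 and 15.7, in the young lists. Of the 41 starts, 28, 27 and 15 were called in aged and 25, 21 and 23 in young lists, with aged replicate 3 the lowest. That list and young replicate 2 were also the lowest over all protein-coding genes, as given above for the 10 members.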

How the data were processed

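ATAC-seq peak lists of 3 aged and 3 young samples, 1 list per sample, were used as deposited. Per the submitters' processing notes, the build was mm10 and the tools were Bowtie2, SAMtools, Picard and MACS2, with versions, parameters, read shift and depth not given in the sources used here. The deposited lists have no header, and their values fit the layout of MACS2: a score, a fold enrichment (ratio over background of the same sample), the -log10 of a p-value and of a q-value, and a summit position. The deposited score is 10 times the -log10 p, capped, and the deposited -log10 p is at least 2 in each list, so weak peaks are included. These values belong to the authors and were used within a list, as ranks or descriptions.

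Rows with one interval were joined to distinct peaks on chromosomes 1 to 19 and X, and lists were merged at 1 bp overlap (0 of the lists were identical to another). Starts came from 17273 protein-coding genes with a RefSeq start window. All 10 members matched. Ranks of the 9582 shared regions were turned into normal scores and fitted with limma 3.58.1 in R 4.3.3 (Python 3.11.15, SciPy 1.17.1 for the rest). Merging and the limma fit were tested on simulated data.

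The members, lists and tests were chosen with earlier results of these data known. All 10 members are named, with their start regions, 2 best distal regions and any region specific to 1 age, and from the wider list those starts that differed most between ages. Regions at starts of other protein-coding genes were set apart from distal ones, and other regions called in all 6 lists were also named. That separation and the counts of peaks at or above the 90th percentile were added after the data had been seen. Alternatives were a q-value limit of 0.05, a locus of 10 kb, a promoter window of 500 bp, a stricter overlap, lists cut to 100000 peaks, ranks of the fold enrichment, a replicate block and leaving out each list.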

Additional observations from a re-analysis of the deposited data

How the results depend on the processing

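The sample tests cannot pass 0.05, as the smallest p is 0.1 for the exact permutation test and 0.25 for the sign-flip test, so their p-values say nothing about stability. With limma 0 shared regions were called under each alternative run, with 193 to 650 at an unadjusted p under 0.05 when 1 list was left out. The 17 member regions called in all 6 lists became 8 at a q-value of 0.05, 9 with loci of 10 kb, and 34 over the 4 lists without aged replicate 3 and young replicate 2 (chosen after seeing the data). Leaving out 1 list gave 17 to 25. Regions called in all aged and no young lists numbered 0 to 13 with 1 list left out, the most without aged replicate 3, and leaving out a list of the same age asks for fewer calls. Regions called in all young and no aged lists numbered 1 to 16 with 1 list left out, the most without young replicate 3, and 0 at a q-value of 0.05, with loci of 10 kb and with the stricter overlap.

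Directions of the age differences were not stable. The share of peaks, aged minus young, was -0.000359 percentage points and ran from -0.0120 to 0.0198 with 1 list left out, above 0 without aged replicate 1 and without young replicate 3. The called starts moved from -0.333 to 0.667 at a q-value of 0.05 and ran from -1.33 to 0.667 with 1 list left out. The difference in early minus committed density was 0.0734, turned to -0.461 at a q-value of 0.05 and to -0.568 with loci of 10 kb, and ran from -0.499 to 0.713 with 1 list left out. The cause of these changes was not tested. The early excess of peaks at or above the 90th percentile averaged 13.7 percentage points and ran from 12.2 to 15.7 with 1 list left out. It was 10.6 without starts of other genes, 8.04 for distal peaks, 14.4 at the 80th percentile and 9.63 for distal peaks at the 80th percentile (all chosen after seeing the data).

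Samples with one replicate number showed no pairing in the ranks of their shared regions. Their deviations from the age means correlated at 0.0378, -0.161 and -0.0661, and those of samples with different numbers at -0.107 to 0.216. Whether samples of one number were handled together cannot be told from these values. The replicate block gave -0.000359, -0.333 and 0.0734 for the 3 differences (exact sign-flip p 1, 1 and 0.5) and 0 limma calls.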

Other observations

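The density of peaks at early minus committed loci was alike in aged and young samples that share the number after "exp" in their titles, a number the labels do not explain. It was -0.178 in the aged and -0.363 in the young sample of replicate 1, 0.333 and 0.237 for replicate 2, and 1.79 and 1.85 for replicate 3, in peaks per 100 kb of locus and per 100000 peaks of the list. This was seen after the fact in 3 pairs, and no test was run on it.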
